A study of Homo sapiens with 2 samples.

Results

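The genes described here are 10 genes of serine synthesis and of the integrated stress response, namely PHGDH, PSAT1, PSPH, SHMT2, MTHFD2, ASNS, DDIT3, DDIT4, SESN2 and TRIB3. Every probe whose symbol in the array's probe-to-gene table is one of these names was taken, which gave 11 probes: 2 for PHGDH and 1 for each other gene. They belong to 18638 genes with a symbol on the arrays, of which 16685 were above background on at least 1 array. The genes were chosen by their log2 ratios between these same arrays, so their own values are a description and carry no test. RNA came from SW620, a human cell line established from a colon carcinoma's lymph node metastasis and grown in DMEM with 10% FBS without further treatment. One culture held a control lentivirus and the other was made to express CDR1AS, a circular RNA rich in binding sites for the microRNA miR-7, with 1 array for each. Both kinds of cells were therefore modified, and the labels give neither the promoter of the CDR1AS construct nor whether a clone or a pool of cells was used. With 1 array per group there was no replicate error, and no difference below could be checked in a replicate.

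Serine is made from the glycolytic intermediate 3-phosphoglycerate by PHGDH, PSAT1 and PSPH in turn. SHMT2 and MTHFD2 then use serine in mitochondria to supply glycine and folate-bound one-carbon units, which feed nucleotide synthesis. In the integrated stress response, kinases that sense amino acid shortage, unfolded protein, double-stranded RNA or haem lack phosphorylate the translation factor eIF2. Translation falls in general, while that of the transcription factor ATF4 rises, and ATF4 switches on genes of amino acid supply, among them those of serine and asparagine synthesis, as well as DDIT3, DDIT4, SESN2 and TRIB3. Proliferating carcinoma cells are known to draw on this pathway for serine and glycine.

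ATF4 and its partners of the C/EBP family bind a composite element, searched here as TGATGNAA on both strands, and the CCAAT box, searched as CCAAT on both strands, is a common promoter element. The 250 bases before the start of transcription are shown for PHGDH and DDIT3, which had the largest log2 ratios, and for PSAT1, the lowest. They are also shown for ASNS, the only one of the 8 genes with such a window that matched the composite element there. They are RefSeq sequences of GRCh38.p14, written from 5′ to 3′ towards the start, with matches to either motif in capitals (a CCAAT match on the other strand reads ATTGG).
PHGDH, chr1:119711684-119711933, plus strand: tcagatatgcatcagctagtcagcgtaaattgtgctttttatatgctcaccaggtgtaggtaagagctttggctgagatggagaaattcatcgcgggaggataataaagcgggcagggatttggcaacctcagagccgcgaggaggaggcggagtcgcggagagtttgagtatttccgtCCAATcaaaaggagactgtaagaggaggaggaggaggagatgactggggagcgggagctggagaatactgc
DDIT3, chr12:57520518-57520767, minus strand: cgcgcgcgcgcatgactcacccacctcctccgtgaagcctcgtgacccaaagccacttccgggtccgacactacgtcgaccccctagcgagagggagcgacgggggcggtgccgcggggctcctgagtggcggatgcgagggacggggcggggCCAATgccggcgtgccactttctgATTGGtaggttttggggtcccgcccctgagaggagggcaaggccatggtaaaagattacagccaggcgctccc
PSAT1, chr9:78296875-78297124, plus strand: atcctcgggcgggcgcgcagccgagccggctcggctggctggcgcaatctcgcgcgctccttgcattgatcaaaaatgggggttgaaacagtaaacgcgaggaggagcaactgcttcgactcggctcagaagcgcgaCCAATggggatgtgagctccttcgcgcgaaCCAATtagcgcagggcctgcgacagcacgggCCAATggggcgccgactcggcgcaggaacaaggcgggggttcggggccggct
ASNS, chr7:97872409-97872658, minus strand: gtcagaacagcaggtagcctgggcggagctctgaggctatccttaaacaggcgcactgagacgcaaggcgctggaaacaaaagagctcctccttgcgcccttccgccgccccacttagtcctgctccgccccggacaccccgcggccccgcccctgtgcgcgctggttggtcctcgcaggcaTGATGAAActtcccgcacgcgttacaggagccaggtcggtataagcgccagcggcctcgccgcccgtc

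The table of promoters held 12 such windows for 8 of the 10 genes, all but PSPH and SHMT2. A CCAAT box was present for 6 of these 8 genes, PHGDH, PSAT1, MTHFD2, DDIT3, DDIT4 and SESN2, and in 32.0% of all 35116 windows (37.0% of the 27305 genes they belong to). PSAT1 had 3 CCAAT boxes, MTHFD2, DDIT3, DDIT4 and SESN2 had 2 each, and PHGDH had 1, which began 71 bases before the start. The composite element was found for ASNS only, in the window of its upstream start and 68 bases before that start, and it was present in 3.14% of all windows. Among 377 measured genes with the element the median log2 ratio was -0.00 and 5 were at or past 2-fold higher (1.33%; BCAR3, FHL2, PLAC1, PPP2R2C and SH3BGRL, named after their values were seen), beside 0.755% of the 12722 measured genes with a window but without it. A match is a run of letters and not a shown site of binding. Bases further from the start or after it, and variants of the letters, were not searched. A gene without a match here may therefore hold the element elsewhere.

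Each probe was read as spot intensity, the brightness of the spot in the red (Cy5) channel in scanner units, which averaged 65.9 and 69.5 at blank spots of the control and CDR1AS arrays. A probe was above background where it passed the blank mean by more than 2 SD, that is above 69.1 for the control and 72.1 for CDR1AS. All 11 probes were above this limit on both arrays, from 1.94 times it for SESN2 to 29.5 times for SHMT2 on the control array. The log2 ratio is the normalized log2 level on the CDR1AS array minus that on the control array, after a background correction that adds an offset of 50 and so compresses the folds of dim probes. Spots of different probes cannot be set against each other, since probes differ in how well they bind. All of the genes but PHGDH rest on a single probe. Over 2734 genes with 2 probes, with no filter on dim ones, the log2 ratios of the 2 probes had a correlation of 0.63.

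Of the 10 genes, 2 were at or past 2-fold higher on the CDR1AS array (PHGDH and DDIT3), against a background of 0.755% of all 16685 genes measured. None was at or past 2-fold lower, against 0.575%. The log2 ratio was above 0 for 8 of the 10, against 47.2% of all genes, and the median was 0.45, against -0.01 over all genes. Since these values were used to choose the genes, nothing is read from the counts. The 10 genes ran from -0.19 (PSAT1) to 2.16 (PHGDH), while the quartiles over all genes were -0.10 and 0.09. Without PHGDH the median of the other 9 genes was 0.37.

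**Figure D1:**
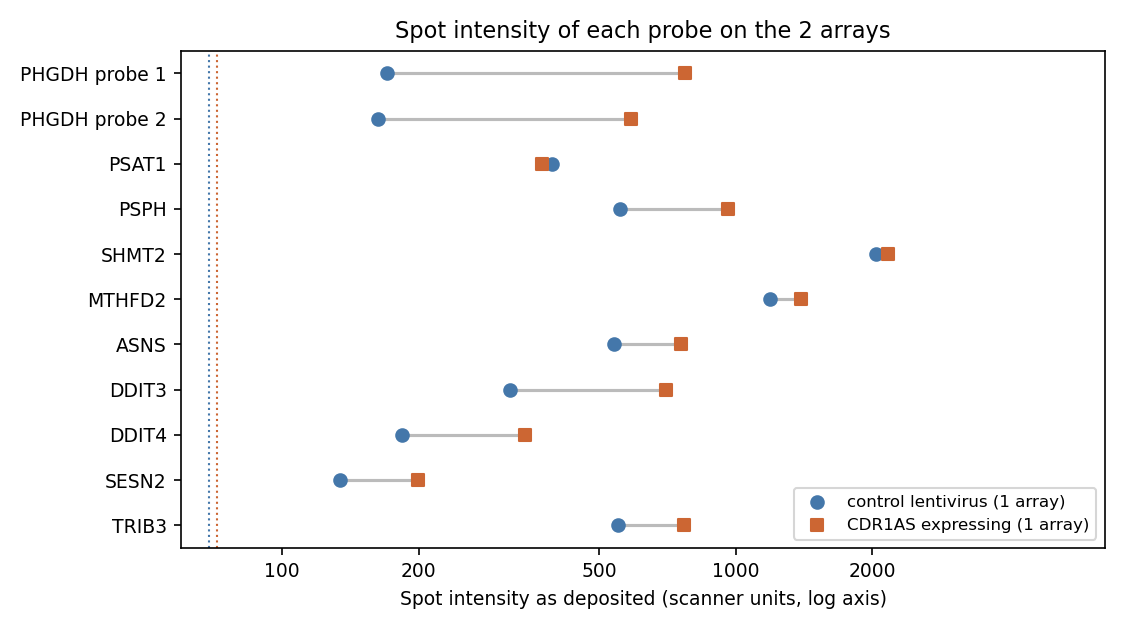
Spot intensity in the red channel (scanner units, log axis) of the 11 probes on the control array (circles) and the CDR1AS array (squares), 1 array each, with dotted lines at the background limits of 69.1 and 72.1. The pair of each probe may be compared, not different probes. PSAT1 is the only probe whose spot was dimmer on the CDR1AS array. These spots are not normalized, and the CDR1AS array was brighter as a whole (median gene probe 109, against 103 on the control array).

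The 3 enzymes of serine synthesis did not change alike. PHGDH, which oxidises 3-phosphoglycerate and commits it to serine, had spots of 170 (control) and 773 (CDR1AS) by its first probe. The second PHGDH probe had 162 and 588. Both probes were thus bright on the CDR1AS array and at 2.46 and 2.35 times the limit on the control array. Their log2 ratios were 2.16 (4.48-fold) and 1.83 (3.56-fold), and only 10 genes of the whole array, 0.0599% of those measured, had a larger ratio than PHGDH by its brighter probe. PSAT1, the transaminase of the second step, had spots of 393 and 374 and a log2 ratio of -0.19, so it was slightly dimmer on the CDR1AS array. PSPH, the phosphatase that releases serine, had spots of 554 and 963 and a log2 ratio of 0.69 (1.61-fold). It was brighter on the CDR1AS array but within 2-fold. PSPH has a close pseudogene copy, PSPHP1, and whether the probe also binds its transcript is not known here.

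In the authors' deposited table, which holds the spot intensity over the blanks scaled to a median of 25 on each array, PHGDH was at 49.7 and 322 by the first probe and at 46.1 and 237 by the second. Those values are 6.48-fold and 5.14-fold higher on the CDR1AS array, more than with the offset of 50. PSAT1 was at 156 and 139 and PSPH at 233 and 409 in that table, a ratio of 1.76. The enzymes before and after PSAT1 were therefore higher on the CDR1AS array in both versions of the data, and PSAT1 itself was slightly lower. Its log2 ratios (-0.19 in the main setting and -0.16 in the deposited table) were about the size of the 0.18 drawn from repeated control spots, so its direction is uncertain.

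The mitochondrial folate enzymes had log2 ratios near 0 in the main setting. SHMT2, which moves the one-carbon unit of serine onto folate, had spots of 2035 and 2162 and a log2 ratio of -0.03. MTHFD2, the dehydrogenase of the next step, had spots of 1190 and 1391 and a log2 ratio of 0.13 (1.09-fold). The MTHFD2 probe is annotated to a non-coding transcript of the gene.

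The 5 ATF4 target genes outside serine and folate metabolism were all brighter on the CDR1AS array. ASNS, which makes asparagine from aspartate and glutamine, had spots of 538 and 756 and a log2 ratio of 0.37 (1.30-fold). DDIT3, which encodes the stress transcription factor CHOP, had spots of 318 and 703 and a log2 ratio of 1.05 (2.08-fold). It was the second gene at or past 2-fold, and 0.671% of the genes measured had a larger ratio. TRIB3, a pseudokinase that binds AKT and is induced by ATF4 and CHOP, had spots of 550 and 767 and a log2 ratio of 0.37 (1.29-fold).

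DDIT4 and SESN2 both encode inhibitors of the growth kinase complex mTORC1. DDIT4, also known as REDD1, acts through the TSC complex and had spots of 183 and 344, a log2 ratio of 0.85 (1.80-fold). SESN2, a sestrin that relays leucine shortage to mTORC1, had spots of 134 and 200, a log2 ratio of 0.52 (1.44-fold). Its spots had little signal over the limit, at 1.94 and 2.77 times it, and its probe is annotated to a predicted non-coding transcript model. Both genes are also known targets of p53, and DDIT4 of hypoxia.

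In the deposited table the 5 genes were higher by 1.40 times for ASNS, 2.41 for DDIT3, 2.24 for DDIT4, 1.83 for SESN2 and 1.38 for TRIB3. There, 3 of the 10 genes were at or past 2-fold higher (PHGDH, DDIT3 and DDIT4), against 3.33% of the 16250 genes with a value on both arrays. With a smaller offset of 16, again 2 of the 10 passed, against 1.37%.

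**Figure D2:**
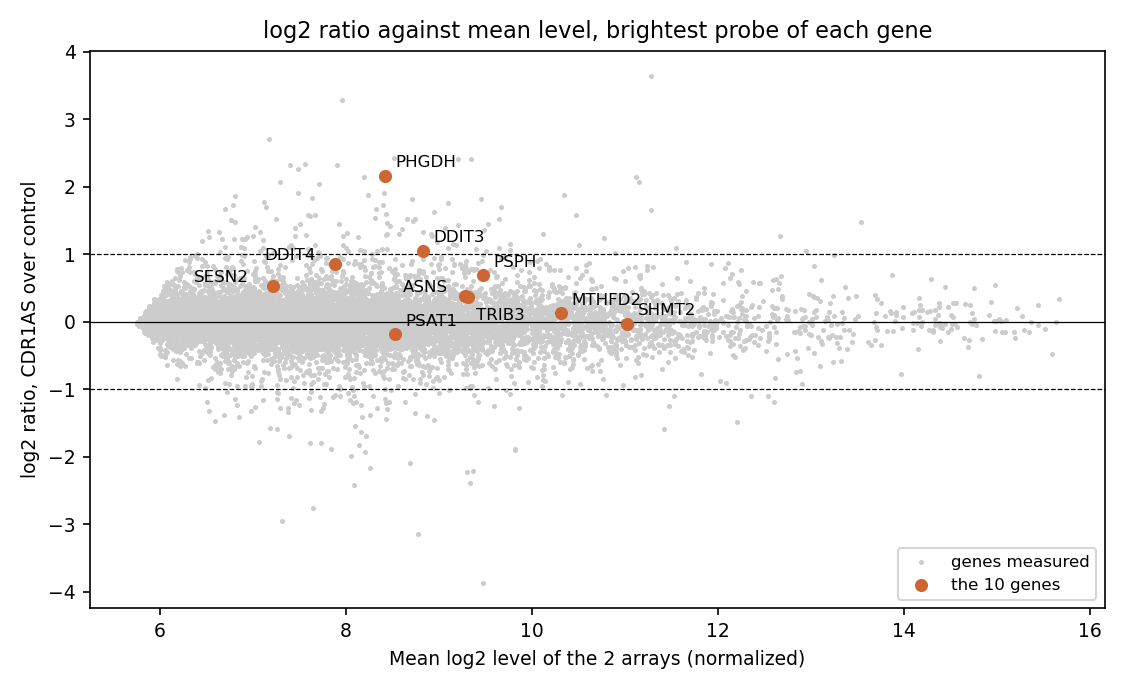
log2 ratio of the CDR1AS array over the control array (vertical axis) against the mean log2 level of both arrays (horizontal axis) for 16685 genes by their brightest probe (grey) and the 10 genes (orange). Dashed lines mark 2-fold; PHGDH at 2.16 and DDIT3 at 1.05 lie above the upper line, and PSAT1, SHMT2 and MTHFD2 lie close to 0.

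The local background deposited beside each spot moved the values of several of these genes. At the median blank spot this column was 52.0 (control) and 57.5 (CDR1AS), but it was higher beside all 11 probes. It differed between spots of like brightness. On the CDR1AS array it was 85.6 beside TRIB3 (spot 767) and 443 beside ASNS (spot 756). Beside ASNS it was 151 (control) and 443 (CDR1AS), and with the local background used in the correction the log2 ratio of ASNS was -1.03, so ASNS was then at or past 2-fold lower, as were 3.32% of all genes. Beside SHMT2 it was 1761 and 459, and its log2 ratio became 1.51. The second PHGDH probe had 96.8 and 448 and a log2 ratio of 0.11 in that setting, while the first had 130 and 156 and a log2 ratio of 1.92. There DDIT4 fell to 0.48, SESN2 to 0.06 and PSAT1 to -0.51, while PSPH rose to 1.17 and TRIB3 to 0.86. With this correction 4 of the 10 genes were at or past 2-fold higher (PHGDH, PSPH, SHMT2 and DDIT3), against 4.57% of all genes. PHGDH, by the probe each setting takes, and DDIT3 were at or past 2-fold higher in all 11 alternatives run, and DDIT3 was just past 2-fold with the local background. The alternatives that change only the filter or the choice of probe could not alter DDIT3, which has a single probe well above the limits.

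The median log2 ratio of the 24 printed blocks lay between -0.02 and 0.01, and those of the blocks that hold the 11 probes lay within that range.

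**Figure D3:**
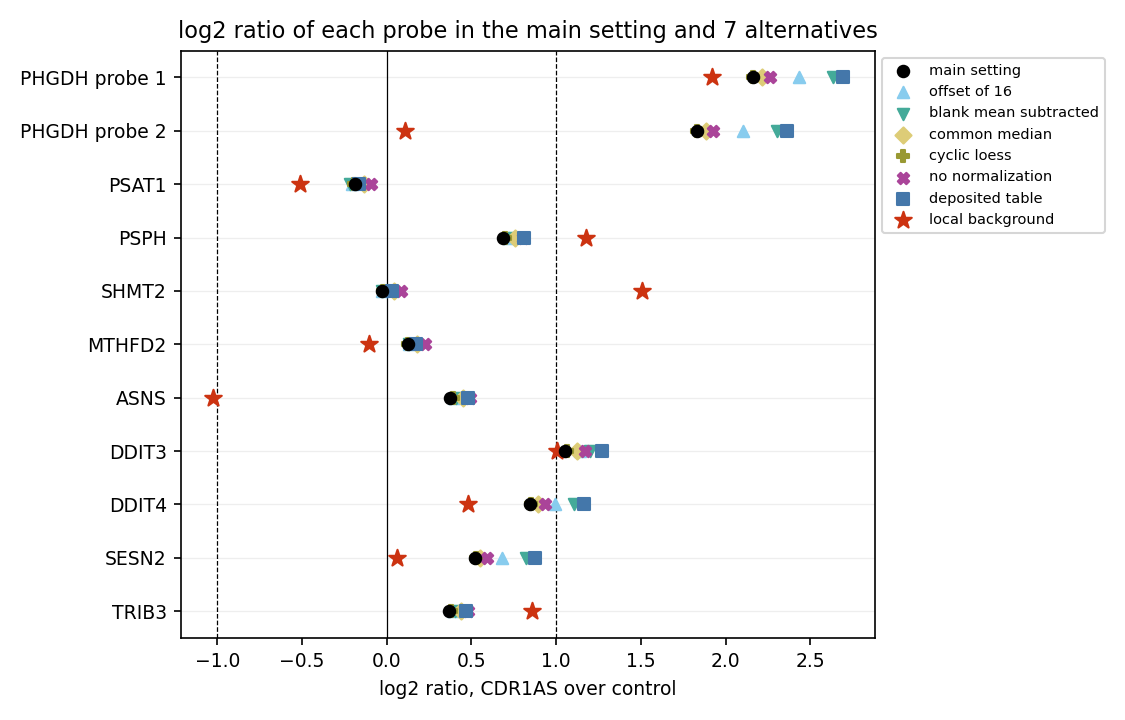
log2 ratio of the CDR1AS array over the control array for each of the 11 probes (rows) in the main setting (black circles) and 7 other ways of correcting and normalizing the arrays. The local background setting (stars) stands furthest from the others for SHMT2 (1.51), ASNS (-1.03) and the second PHGDH probe (0.11). It also gives the lowest or the highest value of each other probe. Dashed lines mark 2-fold.

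The genes around serine, glycine and folate metabolism that were not among the 10 stayed within 2-fold in the main setting. This held in the deposited table too. In the main setting only 0.755% of all genes were at or past 2-fold higher and 0.575% lower. Of the 23 list genes measured, 8 had a log2 ratio above 0 and 15 below it, and the median was -0.02. The highest were the mitochondrial folate carrier gene SLC25A32 (0.19), the serine racemase gene SRR (0.17, other probe 0.01) and the methionine synthase gene MTR (0.16). The lowest were DLD (-0.53), a subunit shared by the glycine cleavage system and other dehydrogenase complexes, the folate hydrolase gene GGH (-0.47) and MTFMT (-0.21), which formylates the mitochondrial initiator tRNA. With the local background 3 were at or past 2-fold higher (SFXN1, GGH and GCSH, at 1.94, 1.66 and 1.36) and 1 lower (TYMS, -1.22). Over all genes these shares were 4.57% and 3.32% in that setting. Of the genes named here, GGH, GCSH and DLD (0.58) turned direction, as did SLC25A32 (-0.37) and SRR (-0.36).

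In the main setting none of the 4 kinases of the integrated stress response was at or past 2-fold. EIF2AK2, which encodes the double-stranded RNA sensor PKR, had a log2 ratio of 0.32 with spots of 464 and 627. EIF2AK3 (PERK, the sensor of unfolded protein) had 0.16, EIF2AK4 (GCN2, the sensor of amino acid shortage) had 0.11 and EIF2AK1 (HRI, the haem sensor) had -0.18. The last was dim, at 81.1 and 77.3, and was at -1.02 in the deposited table, where 2.26% of all genes were at or past 2-fold lower. EIF2AK4 turned direction with the local background, where it was just past 2-fold lower. Over all 22 genes of kinases, eIF2, eIF2B and the eIF2 phosphatase, 12 had a log2 ratio above 0 and 10 below it; the median was 0.02. The highest was PPP1R15A, which encodes the inducible phosphatase subunit GADD34 that reverses eIF2 phosphorylation, at 0.72 with spots of 94.0 and 156. It was near the floor on the control array, where the offset compresses most, and its deposited log2 ratio was 1.56, but with the local background it was -0.18. After EIF2AK2 the next highest was the phosphatase gene PPP1CC (0.27, other probe -0.26). With the local background PPP1CC had 2.81 by its brightest probe. It was the only gene of the 22 at or past 2-fold higher there, against 4.57% of all genes. The lowest were the eIF2B subunit genes EIF2B5 (-0.40) and EIF2B4 (-0.31), followed by the protease gene OMA1 (-0.29, other probe -0.10), and all 3 were above 0 with the local background (0.37, 0.45 and 0.04).

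The transcript of ATF4 itself was measured by 2 probes. Its brightest probe had spots of 2053 and 2207 and a log2 ratio of -0.01, and its other probe gave 0.30. ATF4 is controlled largely at translation, which these arrays do not measure. The other 8 measured genes of the transcription factor list were CEBPG (0.43), a dimer partner of ATF4, the oxidative stress regulator gene NFE2L2 (0.36), ATF3 (0.22), ATF5 (0.13), MYC (0.06, other probe 0.08), NUPR1 (-0.03), CEBPB (-0.11) and JDP2 (-0.29). In all 5 of the 9 were above 0 and 0 were at or past 2-fold, and the spots of ATF3 (79.5 and 95.7) and NUPR1 (80.7 and 83.6) were close to the limits. With the local background 3 of the 9 were at or past 2-fold higher, against 4.57% of all genes. They were CEBPB (1.93, so in the other direction), CEBPG (1.16) and NFE2L2 (1.11), and the brightest ATF4 probe had -0.79.

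Other reported targets of ATF4 and CHOP went both ways. Of 46 measured, 26 had a log2 ratio above 0 and 20 below it. The median was 0.07, and 1 was at or past 2-fold higher in the main setting, against 0.755% of all genes. That was MAP1LC3B, an autophagosome gene, with spots of 246 and 638 and a log2 ratio of 1.30 (2.46-fold). CLIC4 (0.95) and the autophagy receptor gene SQSTM1 (0.87) followed. By the authors' deposited values, 5 of the 46 were at or past 2-fold higher, namely MAP1LC3B (1.60), INHBE (1.36), CLIC4 (1.36), CTH (1.15) and SQSTM1 (1.03), against the 3.33% of all genes. Use of the local background gave 0.61 for MAP1LC3B, placed STC2 (1.35) and ATG12 (1.03) past 2-fold higher, and placed SLC1A5 (-2.61), SQSTM1 (-1.28) and PYCR1 (-1.07) past 2-fold lower. The lowest was PYCR1, a proline synthesis enzyme, with spots of 651 and 405 and a log2 ratio of -0.83 (other probe -0.79). Next were the glutamine transporter gene SLC1A5 (-0.33) and PCK2 (-0.29), the mitochondrial PEP carboxykinase.

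The unfolded protein branches that run through ATF6 and IRE1 had 17 of 23 measured genes above 0 and 6 below, with a median of 0.10 and 0 at or past 2-fold in the main setting. The endoplasmic reticulum chaperone genes HSP90B1 (0.42) and PDIA4 (0.40) and the protease gene MBTPS2 (0.35) were highest. SDF2L1 (-0.71), CRELD2 (-0.39) and the lectin chaperone gene CANX (-0.22) were lowest. With the local background these 3 turned direction (0.18, 1.09 and 2.45), and 5 of the 23 were at or past 2-fold higher, against 4.57% of all genes.

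Relatives of SESN2, DDIT4 and TRIB3 had log2 ratios of both signs. SESN1 had -0.16 (other probe -0.10), SESN3 had 0.00 (other probe 0.25), DDIT4L had -0.03, TRIB1 had 0.40 and TRIB2 had -0.68, with spots of 221 and 154. Over the 29 measured genes of these families and of the nutrient inputs of mTORC1, 11 had a log2 ratio above 0 and 18 below it; the median was -0.03. The highest was RRAGD (0.54, other probe 0.39), a Rag GTPase gene that was at 1.16 in the deposited table. TRIB1 and SEC13 (0.37) followed, and the lowest after TRIB2 were MIOS (-0.38) and MLST8 (-0.29). Corrected with the local background, SEC13 had -1.24 and TRIB2 0.04, so both turned direction. SESN1 (0.01), SESN3 (-0.08) and DDIT4L turned too, to values near 0. RRAGA, another Rag GTPase gene, went from 0.33 to 2.56 (named after its value was seen). It was the only gene of the 29 at or past 2-fold higher there, against 4.57% of all genes.

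**Figure D4:**
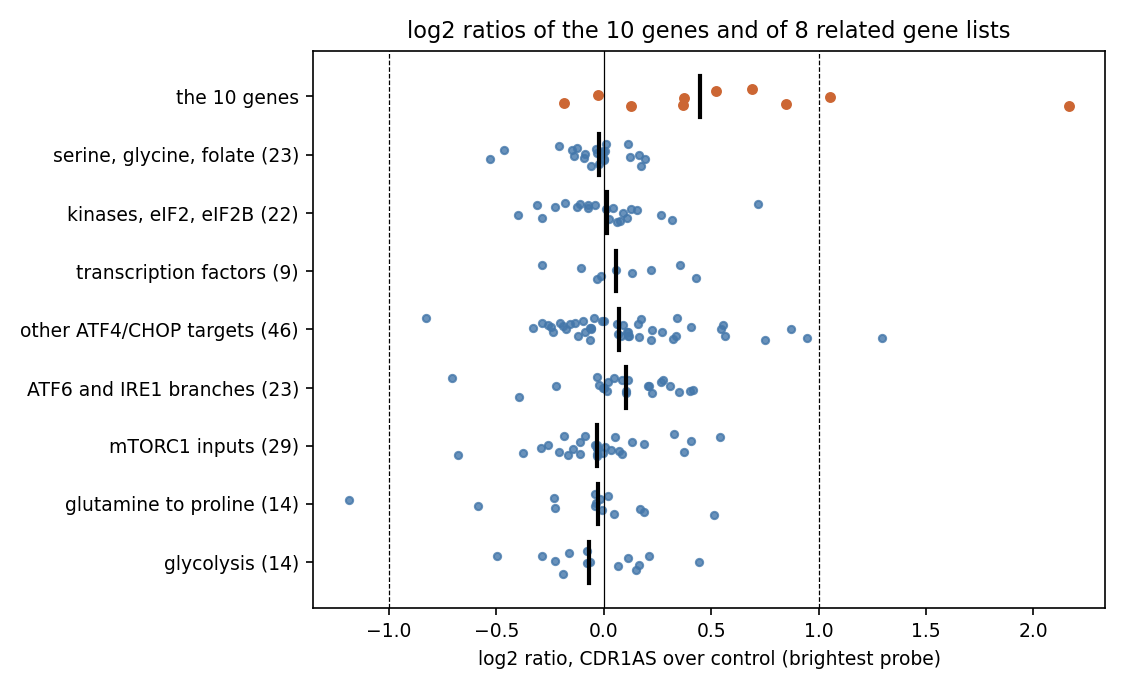
log2 ratio of the CDR1AS array over the control array (horizontal axis) for the 10 genes (orange) and for the measured genes of 8 related lists (blue, number of genes in brackets), with a black bar at each median and dashed lines at 2-fold. The medians of the lists lie between -0.07 and 0.10, and that of the 10 genes, which were chosen with these values known, at 0.45.

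Background was passed by 84.4% of the 24459 gene probes for the control and by 87.2% for CDR1AS. Circular CDR1AS has no matched probe here, so its level was not checked, and the probe of its host transcript LINC00632 was close to the limits on both arrays (69.7 and 73.3). Of 12 colon epithelial markers on the arrays, 11 were above background on each. EPCAM, KRT18, KRT19 and VIL1 were bright, and CDH1 and GPA33 were lower. The intestinal markers KRT20 (82.8 for control and 92.4 for CDR1AS), CDX1 (83.2 and 83.4), LGALS4 (122 and 121) and CDX2 (170 and 109) were dim. CDH17 was below the limit on the control array and CEACAM5 on the CDR1AS array. Leukocyte markers were dim too (5 of 8 above background on each array, the brightest spot at 203), and PTPRC, CD3D and MS4A1 were not above background.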

How the data were processed

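The members and gene lists were chosen with earlier results of these data known. Per the file headers, the authors deposited spot intensity as the median brightness of each spot in the red channel, from scans at 3 gains related by least squares. The way these gains were joined, the build of the array's design and the scanner software are not given here by label or header. Per the labels' protocols, Trizol was used for extraction, and amplified amino allyl RNA was coupled to Cy5. The deposited value table followed a straight line of each array's intensity (largest residual 0.0510 and 0.0559), zero near the blank level, with a median of 25 on each array, linear and uncentred; no scale or direction stayed unknown.

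Intensities were corrected by normexp without the local background (offset 50), quantile normalized over 24459 gene probes and logged to base 2 with limma 3.58.1 in R 4.3.3. Of these probes 21706 had 1 symbol, 2753 had none and 21674 matched RefSeq by gene identifier. A gene was its brightest probe, kept where above the mean of 384 blank spots by 2 SD on at least 1 array. With 1 array per group no test was made; genes at or past 2-fold were counted, and precision is limited by this number of arrays. Named genes were all members with all probes, list genes at or past 2-fold, the 3 highest and 3 lowest of each list and all transcription factors; others, such as the kinases, family relatives and genes past 2-fold in an alternative, were named after their values were seen. The steps were run on a simulated second array built from the control array with known folds put in. The only outcome required was the right direction for the brighter changed probes in the main setting. That check therefore does not cover dim probes or differences between real arrays. Alternatives changed the offset, background, normalization, filter, probe or source table.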

Additional observations from a re-analysis of the deposited data

How the results depend on the processing

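The count of genes at or past 2-fold depended on the background treatment, over all genes and among the 10. Against 126 higher and 96 lower genes in the main setting, an offset of 16 gave 229 and 172, subtraction of the blank mean 517 and 408, whereas 541 and 367 were found with the deposited values, and 763 and 554 with the local background. A filter at 2 times the background limit on both arrays left 75 higher genes and dropped SESN2. Of the 10 genes, 4 were at or past 2-fold higher with the local background, against 2 in the main setting. The median log2 ratio of the 10 was 0.67 with the local background and 0.65 in the deposited table, against 0.45. These values were called moved when they shifted by more than 0.18 on the log2 scale. That limit came from the spread of the brighter kind of repeated control spot within an array (SD 0.10 for control and 0.13 for CDR1AS), which is technical only. The dimmer kind spread more (SD 0.14 and 0.24), and its median spots were 7444 and 10962. Both kinds were brighter than any probe of the 10 genes, so the spread of dim probes was not measured. Of 241 values of single genes and list medians under the alternatives, 18 moved so, all of single genes among the 10. The 241 include alternatives of filter or probe, which return the main value of any gene with a single probe that they keep. PHGDH and DDIT3, past 2-fold in the main setting, kept their direction, while with the local background ASNS and SHMT2 passed 2-fold in the direction opposite to their main value (-1.03 and 1.51). ASNS and MTHFD2 were below 0 only with the local background (-0.11 for MTHFD2), and SHMT2 was above 0 in 4 of 11 alternatives. Signal over background limited DDIT4, SESN2 and PHGDH on the control array most. No paired analysis was possible because each group has 1 array, and for the same reason no array could be left out.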

Other observations

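Genes that supply or use amino acids next to serine and asparagine were mostly within 2-fold in the main setting, as were most genes measured. Of 14 measured genes of glutamine, asparagine, aspartate and proline metabolism, 5 had a log2 ratio above 0 and 9 below. The median was -0.03, and 1 was at or past 2-fold lower, against 0.575% of all genes. That was OAT, which links ornithine to proline, with spots of 1006 (control) and 491 (CDR1AS), a log2 ratio of -1.18, and -1.75 with the local background. The argininosuccinate synthase gene ASS1 (-0.58) and the cytosolic aspartate transaminase gene GOT1 (-0.23) followed, and GLUD1, glutamate dehydrogenase, was highest at 0.51, followed by GLUL (0.19) and ASL (0.17). With the local background GLUD1 had 1.46 and GOT1 0.48, the latter in the other direction. OAT and PYCR1, which both feed proline synthesis, were thus dimmer on the CDR1AS array, whereas ALDH18A1, the enzyme of its first steps, had 0.41 (named after its value was seen).

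Of 14 glycolysis genes, 6 had a log2 ratio above 0 and 8 below; the median was -0.07, with 0 at or past 2-fold. The phosphofructokinase genes went both ways, with PFKM highest at 0.44 and PFKL lowest at -0.50 (other probe -0.22). PKM (0.21, other probe 0.15) and HK1 (0.16) followed at the upper end, HK2 (-0.29, other probe -0.04) and TPI1 (-0.23) at the lower. With the local background ENO1 was past 2-fold higher (3.61), and ALDOA (-3.28) and PGK1 (-1.67) were past 2-fold lower. PGK1, which makes 3-phosphoglycerate, the substrate of PHGDH, had spots of 365 and 348 and a log2 ratio of -0.19 (named after its value was seen). The endothelial marker PECAM1 was above background on the CDR1AS array only, with spots of 66.4 and 98.3, while the other endothelial markers measured lay between -0.15 and 0.04.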
